A study of Mus musculus with 6 samples.

Results

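The genes described here are Myc and 33 genes for nucleolar and ribosomal RNA (rRNA) processing proteins, read in group 3 innate lymphoid cells (ILC3s) cultured with and without insulin-like growth factor 1 (IGF-1). They were taken by name, with no threshold on their values, and all 34 have a row among the 33157 rows of the count table. All 34 also passed the filter on low counts and were among the 13483 genes tested. The cells were sorted from wild-type mouse small intestine as lineage-negative CD127+ KLRG1- cells with high CD90.2 and dim CD45. The IGF-1 group (ILC3_Igf1, 3 libraries) received IGF-1 at 200 ng/mL together with 20 ng/mL of the type 1 cytokine interferon-γ (IFN-γ) for 4 h. The control group (ILC3_Ctrl, 3 libraries) received the same IFN-γ without IGF-1, and no cultures without IFN-γ were analysed here. Nothing in the labels tells whether replicates are different animals or different wells, and the spread behind each p-value may therefore be technical.

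MYC is a transcription factor that binds DNA as a dimer with MAX and drives genes of cell growth, among them those for making ribosomes. Ribosome assembly starts in the nucleolus, where RNA polymerase I transcribes the pre-rRNA. Small nucleolar ribonucleoproteins (snoRNPs) modify that RNA, and separate sets of assembly factors fold and cleave it into the small and large subunits. IGF-1 acts through a receptor tyrosine kinase and the PI3K-AKT-mTOR pathway, which is known to raise ribosome production in many growing cells. The comparison asked whether this programme differed after IGF-1 in ILC3s that were given IFN-γ.

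The DNA letters CACGTG are the core motif, called an E-box, that MYC-MAX dimers are known to bind. They were searched in a 300-base promoter window, from 250 bases before to 50 after each start site, in RefSeq sequence of build GRCm38.p6. The motif reads the same on both strands, and a gene with several starts counted once if any window held it. Of the 34 genes 29 had a window in the table, and Myc, Npm1, Fbl, Bop1 and Rrp12 did not. CACGTG was found in 7 of the 29, or 24.1%, against 11.4% of the 9993 tested genes with a window and 8.09% of all 27025 genes with one. Among the further genes of ribosome assembly and the MYC network that are described after the 34, it was found in 20 of 104, or 19.2%. The 7 matches are shown 5′ to 3′ on the gene's strand because they show where the motif lies in this gene set, with CACGTG in capitals and up to 12 bases on each side. Utp20 and Mybbp1a have fewer bases after the motif because the window ends there.
Nop2 (chr6:125131811-125131840, plus strand): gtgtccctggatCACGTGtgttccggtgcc
Pes1 (chr11:3963965-3963994, plus strand): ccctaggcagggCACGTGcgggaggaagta
Wdr43 (chr17:71616220-71616249, plus strand): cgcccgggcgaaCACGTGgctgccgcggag
Nle1 (chr11:82908355-82908384, minus strand): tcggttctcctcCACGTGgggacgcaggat
Tsr1 (chr11:74898092-74898121, plus strand): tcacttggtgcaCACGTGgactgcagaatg
Utp20 (chr10:88826765-88826789, minus strand): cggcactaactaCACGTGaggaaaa
Mybbp1a (chr11:72441355-72441376, plus strand): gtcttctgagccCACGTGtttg

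In Nop2 the motif starts 60 bases before the start site. In the other 6 it lies just inside the transcript, its first base at position 3 in Pes1, 18 in Wdr43, 24 in Nle1, 25 in Tsr1, 38 in Utp20 and 41 in Mybbp1a, counted from the first transcribed base. A match is a description of the letters and does not show that MYC binds there.

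None of the 34 genes passed the test between IGF-1 and control libraries, and in 28 of them the log2 fold change was smaller than 0.3 in size. Levels are CPM, that is, counts divided by each library's total after TMM scaling, given for each library or as mean ± SD of the 3 libraries of a group. A log2 fold change is IGF-1 over control, followed by its standard error (SE). Adjusted p-values are Benjamini-Hochberg values over all 13483 genes from edgeR's quasi-likelihood test, called at 0.05. By that test 67 of the 13483 genes (0.497%) were called, 31 higher (0.230%) and 36 lower (0.267%). Leaving out 1 library moved that count to 0 without IGF-1 replicate 1, to 1 when IGF-1 replicate 2 was left out, and to 17 without IGF-1 replicate 3. It was 55 without control replicate 1, 6 without control replicate 2 and 2 in the fit that left out control replicate 3. Of the 34 genes 0 were called, with adjusted p from 0.258 for Ddx21 to 0.984 for Utp20. DESeq2 and limma-voom also called 0, with lowest adjusted p of 0.126 and 0.226, both for Ddx21.

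Without adjustment, 5 of the 34 genes (14.7%) had an edgeR quasi-likelihood p under 0.05, against 11.8% of all genes tested. Of these, 4 had positive values, or 11.8% against 5.58% of all genes, and 1 a negative value, or 2.94% against 6.24%. The 4 were Ddx21, Npm1, Nop58 and Wdr43, and the 1 was Ppan. These counts depended on the libraries: they were 1 positive and 0 negative when either IGF-1 replicate 1 or IGF-1 replicate 2 was left out, 5 and 2 without IGF-1 replicate 3, 1 and 1 without control replicate 1, 3 and 2 when control replicate 2 was left out, and 2 and 0 in the fit that left out control replicate 3. The log2 fold change was above 0 in 21 of the 34 (61.8%), against 48.7% of all genes tested. The median over the 34 was 0.06, or 4.49% higher, against -0.01 over all genes. That median was 0.12 without control replicate 3, 0.10 without IGF-1 replicate 1 and 0.03 without control replicate 1.

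The single-gene intervals show what these libraries could leave undetected. The 95% interval of the fold change lay within 1.5-fold either way for 20 of the 34 genes and within 2-fold for 30. The other 4 were Myc, Tsr1, Rrp12 and Nle1. No gene had an estimated fold beyond 1.5 either way. A p above the threshold does not show that the groups were alike, and within bulk RNA a lower level per cell and fewer cells expressing a gene cannot be told apart.

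**Figure D1:**
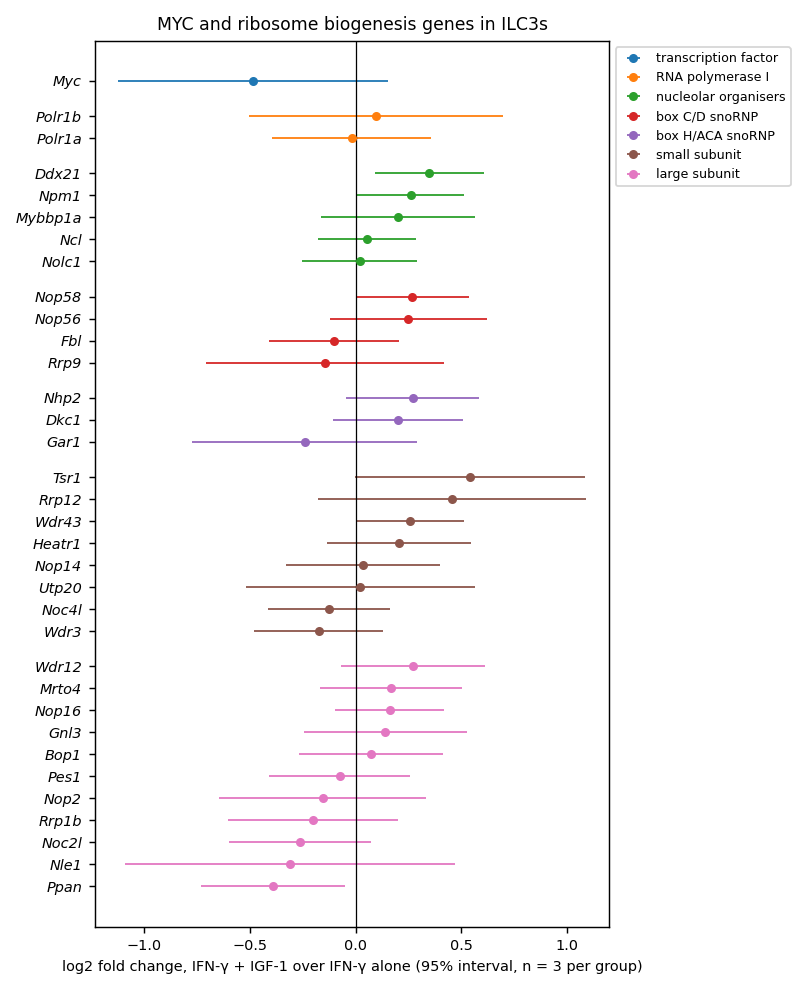
Log2 fold change of each of the 34 genes (x axis, IFN-γ with IGF-1 over IFN-γ alone) with its 95% interval from edgeR, grouped by role on the y axis, n = 3 libraries per group. Estimates run from -0.48 for Myc to 0.54 for Tsr1, and 5 intervals leave out 0 before any adjustment for the number of genes tested.

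Myc, the transcription factor of the set, had 7.65, 7.48 and 11.8 CPM in the IGF-1 libraries, against 13.5, 9.24 and 15.0 CPM in the control libraries. IGF-1 replicate 3 lay above control replicate 2, so the groups overlapped. The log2 fold change was -0.48 (SE 0.29, adjusted p = 0.565 by edgeR's quasi-likelihood test), with a 95% interval of 0.459-fold to 1.11-fold. Its sign stayed negative with each library left out, from -0.73 to -0.34.

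RNA polymerase I subunits stood close to their control level. Polr1a, the largest subunit, had 31.3, 26.1 and 23.5 CPM in the IGF-1 libraries, against 26.7, 28.3 and 27.2 CPM in the control libraries (log2 fold change -0.02, SE 0.17). The control libraries of Polr1a fell inside the range of the IGF-1 libraries. Polr1b, the second largest subunit, had 13.9, 13.4 and 16.2 CPM against 8.51, 15.9 and 16.2 CPM in controls, where control replicate 1 was the low one (log2 fold change 0.10, SE 0.27). Without control replicate 1 its value was -0.15.

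The 5 genes grouped here as nucleolar proteins (Ddx21, Npm1, Ncl, Nolc1 and Mybbp1a) all had positive values with the 6 libraries. Their median log2 fold change was 0.20, which was that of Mybbp1a. Ddx21, a nucleolar RNA helicase that takes part in rRNA transcription and processing, had 132, 118 and 116 CPM in the IGF-1 libraries, against 93.5, 96.4 and 97.5 CPM in the control libraries. Every IGF-1 library of Ddx21 lay above every control library. This gene had the smallest p of the set, with a 1.27-fold higher mean (log2 fold change 0.35, SE 0.12, unadjusted p = 0.0127, adjusted p = 0.258 by edgeR). Its unadjusted p was 0.0136 to 0.0634 over the 6 fits that each left out 1 library.

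Npm1, or nucleophosmin, a chaperone of nucleolar assembly, had 543, 546 and 481 CPM in the IGF-1 libraries, against 411, 468 and 430 CPM in the control libraries. The groups did not overlap, and the gap between IGF-1 replicate 3 and control replicate 2 was small (log2 fold change 0.26, SE 0.11, adjusted p = 0.403 by edgeR). Ncl, or nucleolin, an RNA-binding protein of the same compartment, had 498, 525 and 518 CPM against 474, 492 and 518 CPM in controls, and its groups overlapped (0.05, SE 0.11). The snoRNP chaperone Nolc1 (Nopp140) stood at 81.4 ± 2.00 and 80.3 ± 7.13 CPM in IGF-1 and control libraries, and Mybbp1a at 57.1 ± 10.8 and 49.6 ± 5.27 CPM. Nolc1 was at -0.051 without control replicate 1, and its sign was also negative when libraries were scaled to total counts alone. Mybbp1a was at 0.040 without IGF-1 replicate 3.

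Box C/D snoRNPs guide the methylation of rRNA, and the genes for their proteins went in both directions. Nop58, a core protein, had 102, 107 and 108 CPM in the IGF-1 libraries, against 80.1, 95.9 and 86.9 CPM in the control libraries. Its groups did not overlap (log2 fold change 0.27, SE 0.12, adjusted p = 0.421 by edgeR). Its partner Nop56 had 131, 151 and 204 CPM against 150, 124 and 134 CPM in controls, with IGF-1 replicate 3 well above the rest and IGF-1 replicate 1 below 2 of the controls (0.25, SE 0.17). The value of Nop56 was 0.049 without IGF-1 replicate 3. Fibrillarin (Fbl), the methyltransferase of the particle, stood at 61.4 ± 5.71 and 66.0 ± 7.31 CPM in IGF-1 and control libraries (-0.10, SE 0.14). The table has a separate row for a pseudogene, Fbl-ps2, with 2082 counts in all, so how reads were shared between the copies is uncertain. Rrp9, which binds the U3 RNA, was spread from 25.5 to 41.6 CPM with IGF-1 and from 28.0 to 53.5 CPM in controls (-0.14, SE 0.25), and it was 0.16 without control replicate 1 and 0.04 when IGF-1 replicate 1 was left out.

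Box H/ACA snoRNPs convert uridines of rRNA to pseudouridine. Nhp2, a core protein, had 223, 231 and 166 CPM in the IGF-1 libraries, against 172, 168 and 174 CPM in the control libraries. Of the IGF-1 libraries 2 lay above all controls and replicate 3 below them all (log2 fold change 0.27, SE 0.14, adjusted p = 0.498 by edgeR). The value was 0.40 without IGF-1 replicate 3, with an unadjusted p of 0.00686 and an adjusted p of 0.202. The pseudouridine synthase dyskerin (Dkc1) stood at 142 ± 19.5 and 124 ± 11.2 CPM in IGF-1 and control libraries (0.20, SE 0.14), and Gar1 at 17.4 ± 4.81 and 20.5 ± 2.92 CPM (-0.24, SE 0.24).

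Among the 8 factors of the small subunit, 6 had positive values, and the median log2 fold change was 0.12. Tsr1, a late maturation factor known from yeast, had the largest positive estimate of the set. It had 19.8, 23.8 and 17.4 CPM in the IGF-1 libraries, against 9.72, 15.5 and 16.7 CPM in the control libraries. The groups did not overlap, but control replicate 1 was far below the other controls (0.54, SE 0.24, adjusted p = 0.424 by edgeR), and the value was 0.34 when that library was left out.

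Wdr43, a component of the processome that links rRNA transcription to processing, had 117, 105 and 108 CPM in the IGF-1 libraries, against 92.2, 91.5 and 91.7 CPM in the control libraries. Its control libraries lay within 1 CPM of each other and below all IGF-1 libraries (log2 fold change 0.26, SE 0.11, adjusted p = 0.403 by edgeR). Rrp12, known in yeast for the export of both subunits, had 11.3, 19.1 and 19.8 CPM against 8.81, 15.3 and 12.5 CPM in controls, with overlap (0.46, SE 0.29). Heatr1, the counterpart of yeast Utp10, stood at 65.2 ± 10.5 and 56.5 ± 5.14 CPM in IGF-1 and control libraries (0.21, SE 0.15). Nop14 (0.04, SE 0.17) and Utp20 (0.02, SE 0.24) were close to 0, and Utp20 was negative when libraries were scaled to total counts alone. Noc4l, the partner of Nop14, was at -0.13 (SE 0.13) and Wdr3, the counterpart of yeast Utp12, at -0.17 (SE 0.14).

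The 11 factors of the large subunit had the lowest median among the groups of several genes, -0.07, with 5 positive and 6 negative. Ppan, the counterpart of yeast Ssf1, had 30.7, 29.4 and 35.4 CPM in the IGF-1 libraries, against 38.2, 40.5 and 46.5 CPM in the control libraries. Every IGF-1 library of Ppan lay below every control library (log2 fold change -0.39, SE 0.15, unadjusted p = 0.0280, adjusted p = 0.337 by edgeR). It kept a negative value with each library left out, from -0.47 to -0.31.

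Noc2l, a counterpart of yeast Noc2, had 29.5, 38.4 and 37.0 CPM in the IGF-1 libraries, against 41.2, 41.7 and 43.0 CPM in the control libraries. It was the other gene whose IGF-1 libraries all lay below the controls (-0.26, SE 0.15, adjusted p = 0.548 by edgeR). In the PeBoW complex, which matures large-subunit rRNA, Wdr12 had 54.0, 43.8 and 39.7 CPM in the IGF-1 libraries, against 38.4, 38.3 and 37.1 CPM in the control libraries. Its groups did not overlap (0.27, SE 0.15, adjusted p = 0.540 by edgeR), while those of its partners did. Bop1 was at 59.9 ± 10.7 and 56.9 ± 2.32 CPM in IGF-1 and control libraries (0.07, SE 0.15), and Pes1 at 53.2 ± 7.09 and 56.0 ± 5.73 CPM (-0.07, SE 0.15). These differences between subunits of the complex were not tested against each other.

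Nop16 had 105, 105 and 97.9 CPM in the IGF-1 libraries, against 90.3, 86.5 and 97.8 CPM in the control libraries, so its groups touched without overlap (0.16, SE 0.12). Nucleostemin (Gnl3), a nucleolar GTPase, had 131, 114 and 111 CPM against 79.7, 129 and 113 CPM in controls, with control replicate 1 as the low library (0.14, SE 0.17). Without that library Gnl3 was at -0.034. Mrto4 (0.17, SE 0.15), Rrp1b (-0.20, SE 0.18), the rRNA methyltransferase Nop2 (-0.16, SE 0.22) and the WD-repeat protein Nle1 (-0.31, SE 0.35) all had overlapping groups. Mrto4, like Fbl, has a pseudogene with its own row, Mrto4-ps1, with 443 counts in all, so how reads were shared is uncertain there too. Nle1 had the largest SE of the 34 genes. It ran from 4.27 CPM in control replicate 2 to 10.3 CPM in control replicate 1, with as few as 143 counts in a library. Its log2 fold change was -0.010 without control replicate 1 and -0.59 when control replicate 2 was left out.

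**Figure D2:**
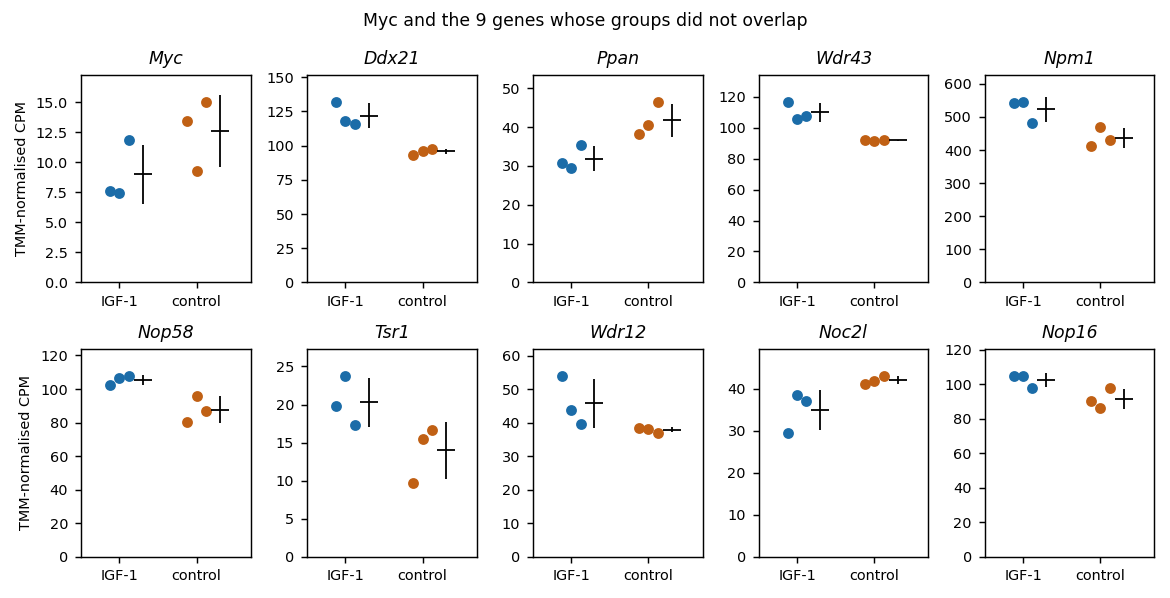
TMM-normalised CPM (y axis, from 0) in each library for Myc and the 9 genes whose groups did not overlap, with IGF-1 libraries (blue) left of control libraries (orange) and mean ± SD beside them (black, n = 3 each). In Myc the groups overlap, in Ppan and Noc2l all IGF-1 points lie below the controls, and in the other 7 they lie above.

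In 9 of the 34 genes (26.5%) the groups did not overlap, against 18.0% of all genes tested. In 7 of them (20.6%) the IGF-1 libraries were the higher ones, against 8.81% of all genes, and in 2 (5.88%) the lower ones, against 9.17%. The 7 were Ddx21, Npm1, Nop58, Wdr43, Tsr1, Wdr12 and Nop16. For 3 libraries a side, the smallest two-sided p that exact permutation allows is 0.1, so a gap of this kind does not reach 0.05 by itself.

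Summed over the 34 genes, the level was 2971, 3063 and 3067 CPM in the IGF-1 libraries, against 2707, 2771 and 2837 CPM in the control libraries. Ncl and Npm1 made up a large part of that sum. Without them it was 1930, 1991 and 2069 CPM with IGF-1, against 1822, 1811 and 1888 CPM in controls, so the order of the groups was the same. As a share of all counts, with no composition scaling, the 34 genes took 0.294%, 0.292% and 0.314% with IGF-1, against 0.265%, 0.285% and 0.291% in controls. By that share IGF-1 replicate 2 was barely above control replicate 3.

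The genes did not move as 1 block across libraries. Control replicate 1 held the lowest value of 11 genes, including Ddx21, Npm1, Tsr1, Gnl3 and Rrp12, and at the same time the highest value of 7, including Rrp9, Nop2, Nle1 and Mrto4. Control replicate 2 held the lowest value of 8 genes and the highest of 1, and control replicate 3 the highest of 7 and the lowest of 1. Within the IGF-1 group, replicate 1 held the highest value of 7 genes, among them Ddx21 and Wdr12, and the lowest of 6, among them Gar1, Rrp9 and Noc2l. Replicate 3 held the highest of 8, among them Nop56 and Dkc1. The number of genes above their own mean over the 6 libraries was 15, 22 and 26 of the 34 in IGF-1 replicates 1, 2 and 3, against 13, 13 and 19 in control replicates 1, 2 and 3. By this count IGF-1 replicate 1 was below control replicate 3, so the groups overlapped.

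**Figure D3:**
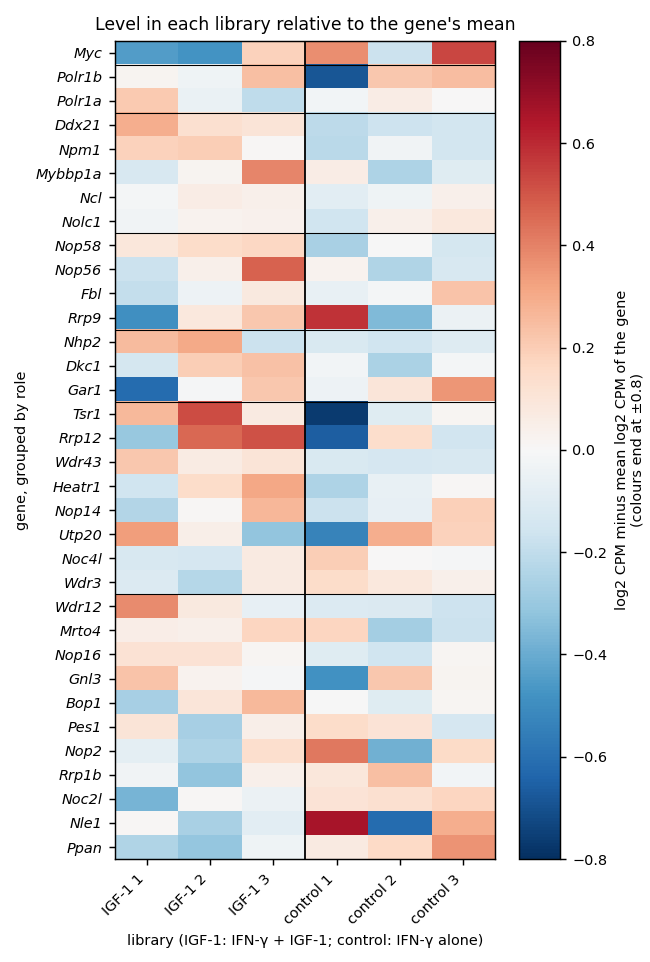
Log2 CPM of each gene (rows, grouped by role) in each library (columns, IGF-1 left of the line, controls right of it), minus the gene's mean over the 6 libraries. Red is above and blue below that mean, and control replicate 1 shows strong values of both signs, such as low Tsr1 and high Nle1.

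Signs were mixed both with and without the promoter motif. The 7 genes with CACGTG had a median log2 fold change of 0.02, with 4 above 0, and ran from -0.31 for Nle1 to 0.54 for Tsr1. The 22 genes with a window and no match had a median of 0.08, with 14 above 0. Another feature is that several of these genes hold snoRNA genes within their span on the same strand. Such a host and its snoRNAs can come from 1 primary transcript. In the GENCODE M21 annotation (build GRCm38, used for names alone) 8 of the 34 held such snoRNA genes: Ncl, Nop56, Nop58, Dkc1, Wdr43, Tsr1, Ppan and Gnl3. Of these hosts 7 had positive values and the median was 0.22, while Ppan was negative. The other 26 genes had a median of 0.02 with 14 above 0, and the 187 other tested coding genes that host a snoRNA had a median of 0.01 with 51.3% above 0.

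The rest of the pathway also held no called gene. In 6 lists of further genes, 128 of 130 were tested, the other 2 being Mycl and Exosc6, and 0 were called by edgeR's quasi-likelihood test. Of the 128, 76 (59.4%) were above 0 and the median was 0.06, against -0.01 over all genes. Without adjustment 13 had p under 0.05 with a positive value, or 10.2% against 5.58% of all genes, and 6 with a negative one, or 4.69% against 6.24%. In 19 the IGF-1 libraries lay above all controls, or 14.8% against 8.81% of all genes, and in 10 below, or 7.81% against 9.17%.

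Within the MYC network, 7 of the 10 tested genes were negative, with a median of -0.12. The largest difference was in Mxi1, a repressor that competes with MYC for MAX. Mxi1 had 13.9, 11.9 and 16.2 CPM in the IGF-1 libraries, against 24.2, 20.8 and 24.4 CPM in the control libraries, with no overlap (log2 fold change -0.72, SE 0.20, unadjusted p = 0.00395, adjusted p = 0.173 by edgeR). Mxd1, a repressor of the same family, stood at 28.4 ± 3.34 and 37.4 ± 5.20 CPM in IGF-1 and control libraries (-0.40, SE 0.17, adjusted p = 0.387). Max, the shared partner, was at 58.2 ± 7.64 and 55.9 ± 2.11 CPM (0.06, SE 0.14).

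Of the other polymerase I genes 7 of 14 were above 0, and the smallest p belonged to the subunit gene Polr1e (0.31, SE 0.18) and the termination factor Ttf1 (-0.27, SE 0.18). In the further small subunit factors 21 of 38 were above 0 with a median of 0.11, led by Utp4 at 55.3 ± 7.02 and 36.2 ± 4.78 CPM in IGF-1 and control libraries (0.61, SE 0.16, adjusted p = 0.152 by edgeR) and the late factor Ltv1 (0.50, SE 0.15). In the further large subunit factors 27 of 41 were above 0 with a median of 0.04, and Rsl1d1 and Rrp15 had the smallest p, though not the largest values. Rsl1d1 stood at 265 ± 7.20 and 196 ± 8.74 CPM in IGF-1 and control libraries (0.43, SE 0.11, adjusted p = 0.147 by edgeR), and Rrp15 was at 0.48 (SE 0.15). Of the snoRNP partners 8 of 12 were above 0, with Znhit3 (0.35, SE 0.13) and Nufip1 (-0.30, SE 0.16) having the smallest p. Of the nuclear exosome, which trims rRNA precursors, 10 of 13 tested genes were above 0, with Exosc9 (0.34, SE 0.14) and its cofactor C1d (0.26, SE 0.11) in front.

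**Figure D4:**
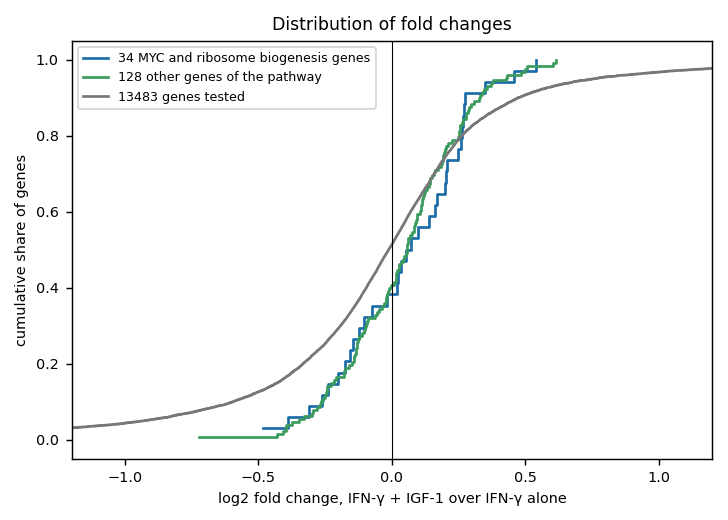
Cumulative share of genes (y axis) by log2 fold change of IFN-γ with IGF-1 over IFN-γ alone (x axis) for the 34 genes (blue), 128 further genes of the pathway (green) and all 13483 genes tested (grey). The blue and green lines run close together and a little right of the grey one around 0, with medians of 0.06, 0.06 and -0.01.

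Total counts were 36171528 to 39206449 in the IGF-1 libraries and 32573713 to 38076876 in the control libraries. Markers of ILC3s were present, with Il7r, Thy1 and Kit at 365 CPM or more in every library. Il7r and Thy1 encode CD127 and CD90, on which the cells were sorted, so their presence was set by the sort. Of the 11 ILC3 markers 1 was called by edgeR's quasi-likelihood test. The 7 T cell markers summed to 38.5 to 48.9 CPM with IGF-1 and 43.8 to 53.9 CPM in controls, and the T cell genes with the most counts were Cd4 (18.3 to 26.0 and 30.1 to 35.3 CPM) and Cd3g (10.5 to 15.6 and 4.30 to 11.7 CPM), while Cd3e was at most 1.21 CPM in any library. The 6 B cell and plasma cell markers summed to 51.1 to 62.4 CPM with IGF-1 and 34.2 to 570 CPM in controls, with Cd79b at 27.8 to 35.6 and 17.2 to 35.1 CPM, Ighm at 23.2 to 27.2 and 14.9 to 21.1 CPM, and Ms4a1 at 0 counts in all libraries. Control replicate 3 had 519 CPM of the plasma cell gene Jchain, against at most 0.21 CPM in the other libraries. Of 8 genes of cycling cells 0 were called, and their sum was 224 to 246 CPM with IGF-1 and 203 to 251 CPM in controls. Mitochondrial mRNAs summed to 19690 to 23277 CPM with IGF-1 against 15789 to 20440 CPM in controls. The long noncoding RNAs Malat1, Neat1, Kcnq1ot1 and Gas5 summed to 1575 to 2559 CPM with IGF-1 against 1905 to 3302 CPM in controls. Both sums overlapped between the groups. The sums of the 11 ILC3 markers did not overlap (5338 to 5791 CPM with IGF-1, 4946 to 5272 CPM in controls). Id2 was a large part of that sum, at 2262 to 2719 CPM with IGF-1 and 1866 to 2032 CPM in controls. Log2 fold changes of the other ILC3 markers had both signs, with those of Il7r, Thy1 and Kit below 0. The sums of the 6 NK and ILC1 markers (119 to 145 and 78.1 to 102 CPM) did not overlap either. Nor did those of the 6 epithelial markers (19.2 to 27.0 and 40.3 to 55.1 CPM, with Epcam called lower). Epcam made up most of the epithelial sum, at 14.6 to 21.1 and 31.6 to 45.6 CPM. Lgals4 was at 4.44 to 5.05 and 6.19 to 6.97 CPM, and Krt8, Krt18, Vil1 and Fabp2 at most 2.55 CPM in any library. Among the NK and ILC1 markers Ncr1 was called higher, at 66.9 to 79.1 CPM with IGF-1 and 27.4 to 29.5 CPM in controls, and the groups of Klrb1c (26.7 to 35.8 and 32.9 to 42.5 CPM), Tbx21, Gzma and Gzmb overlapped. Eomes, also on that list, had 0 counts in all libraries. Whether the groups differed in NK or ILC1 cells was not tested. The part of these marker levels in the values of the 34 genes was not tested.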

How the data were processed

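RNA-seq libraries of sorted ILC3s were made with the SMART-Seq HT kit, which does not mark strand. The authors deposited raw counts in rows named by gene symbol, and 88 rows repeated a symbol. The submitters' processing notes name featureCounts 1.5.3, SAMtools 1.15.1, HISAT2 2.2.1 and fastp 0.23.2 and the build GRCm39. No source used here gives the annotation release or says how multi-mapping reads were treated. In GENCODE M21, exons of 21 of the 34 genes overlap another gene: for 18 one on the opposite strand (among them Wdr43, Wdr12, Tsr1 and Noc2l), and for 5 one on the same strand (Ncl, Nop56, Nop58, Ppan and Gnl3, all with snoRNAs). Reads in the overlapping stretches cannot be told apart.

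Genes were kept by filterByExpr (minimum count 10, minimum total 15), which left 13483. The test was edgeR 4.0.16 in R 4.3.3 with TMM scaling, glmQLFit and glmQLFTest, group as the only term. The SE is the log2 fold change divided by the square root of F, and 95% intervals use the fit's total degrees of freedom. The alternatives used DESeq2 1.42.0 and limma 3.58.1 among others. The test was checked on simulated data. Libraries of a group differed by more than sampling noise (chi-square per degree of freedom 38.5 to 88.7), so no file repeated another's counts; this does not show that they came from separate RNA samples. Counts are PCR reads without molecular identifiers and not independent molecules.

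The 34 names, though set by no threshold on values, and the lists were chosen with earlier results of these data known, so their shares beside those of all genes are descriptions. All 34 are named; from each further list the 2 genes with the smallest p are named, since none was called. Max was named for its role after its values were seen, and promoter and snoRNA features were added after values were seen. The values of some marker genes are not reported here.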

Additional observations from a re-analysis of the deposited data

How the results depend on the processing

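None of the 34 genes was called under any of the alternatives run, which were a replicate block, RLE scaling, total counts alone, DESeq2, limma-voom, no filter, a filter of 10 CPM in 3 libraries (which removed Nle1), each library left out, and an adjusted p under 0.1. The lowest adjusted p of any of them was 0.126. The number of genes called over the whole table moved from 67 to 8 with the replicate block, 456 with DESeq2, 429 with no filter, 178 with the 10 CPM filter and 144 at an adjusted p under 0.1. It was 0 to 55 with a library left out, when fewer samples entered the fit. The labels do not say that a shared replicate number marks a shared animal or day, so the numbers were not taken as pairs. Same-numbered libraries had correlations of their deviations from -0.05 to 0.06, and 2 of the 6 libraries correlated best with their own number. With deviations taken within groups of 3 libraries, these correlations cannot exclude pairing. With the block the median of the 34 was 0.06, and leaving out a library gave 0.032 to 0.12. The sign was kept under every alternative and left-out library for 24 genes. With total counts alone Nolc1 was at -0.014 and Utp20 at -0.019. With a library left out, values ran from -0.14 to 0.071 for Polr1a, -0.15 to 0.25 for Polr1b, -0.051 to 0.068 for Nolc1, -0.33 to 0.16 for Rrp9, -0.19 to 0.18 for Utp20, -0.099 to 0.15 for Nop14, -0.16 to 0.028 for Pes1, -0.047 to 0.21 for Bop1, -0.35 to 0.039 for Nop2 and -0.034 to 0.29 for Gnl3. Of these 10, 7 changed sign without control replicate 1. The cause of these shifts was not tested.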
